A study of Mus musculus with 4 samples.

Results

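The claudins Cldn1, Cldn3, Cldn4, Cldn5, Cldn7, Cldn12 and Cldn23, together with occludin (Ocln) and the scaffold gene Tjp1, were followed through mouse skin with and without house dust mite (HDM). They were taken by gene symbol, and all 9 were present among the 23203 symbols that stand on 1 line of the tables. Skin of adult C57BL/6 mice, wild type (WT) or labelled Egr1 knockout (KO), was profiled by QuantSeq 3′ RNA sequencing, with 1 library in each of 4 groups. WT naive and KO naive skin carry SDS alone as their treatment label, so the detergent, which opens the skin barrier, is common to all 4 groups. WT HDM and KO HDM skin received SDS on the shaved neck and both ears, then 100 mg of a cream with HDM extract, 2 times a week for 3 weeks. The KO mice are of C57BL6 background and offspring were told apart by PCR. Which part of Egr1 they lack, and whether 1 animal or a pool made a library, is not stated. By its title the study concerns EGR1, an immediate early transcription factor, in keratinocytes and the density of skin nerves in atopic dermatitis, which the mite cream models.

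Tight junctions close the gap between neighbouring epithelial or endothelial cells. Claudins span the membrane and set by their mixture how tight and how selective the seal is, occludin joins them in the strands, and the Tjp scaffolds bind the claudin tails and tie the strand to actin. In mouse epidermis the seal lies in the granular layer, and mice that lack claudin 1 lose water through the skin and die after birth. Claudin 5 is the main claudin of blood vessels, while claudins 3, 4 and 7 are best known from glands and other epithelia.

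The libraries held 9428717 to 10108031 recovered reads, and their differences have no replicate error: intervals below cover counting error only, and no p-value belongs to a comparison of 2 libraries. Egr1 itself was not lower under the KO label, with log2 values of 11.02 in WT naive, 11.53 in KO naive, 10.31 in WT HDM and 11.68 in KO HDM, and 3′ tags may lie outside the part removed, so these libraries are called KO-labelled. The libraries also differed in sex-linked transcripts by treatment: Xist had 10 and 40 reads in the naive libraries against 2195 and 2433 with HDM, and Ddx3y 1925 and 2430 against 1 in each. HDM and this difference cannot be told apart. In KO-labelled naive, 336 genes had 0 reads with 50 or more in each other library, against 0 to 5 such genes in each of the others, and Cldn4 is among them. The naive libraries further carried salivary gland transcripts, described below beside the claudins of glands.

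With HDM, Cldn1 of the epidermal water seal and the scaffold gene Tjp1 stood higher in both genotypes, and the vascular claudin and Cldn23 stood lower. In WT skin Cldn1 was 2.15-fold and Tjp1 2.61-fold higher, and Cldn5 was 2.84-fold and Cldn23 3.89-fold lower. The same 4 genes lay past 2-fold in the same directions in KO-labelled skin, by 2.02-fold, 3.10-fold, 3.24-fold and 3.89-fold. Occludin differed by less than its counting interval in both. A gene was called measured where its mean log2 value over the libraries passed 5.11, the median gene's mean. Of the 9 genes 7 did, and Cldn3 (mean 4.16) and Cldn7 (1.42) did not. In WT skin 2-fold was passed upward by 2 of these 7 and downward by 2, where 27.2% of all 11600 measured genes differed that far, 14.5% upward and 12.7% downward. In KO-labelled skin 4 were higher and 2 lower, against 39.9% of all genes, 21.7% upward and 18.2% downward; the 2 further genes there, Cldn4 and Cldn12, were those more than 2-fold below WT in the KO-labelled naive library, which both comparisons share. The median log2 difference of the 7 measured genes was 0.63 in WT and 1.02 in KO-labelled skin, beside 0.03 and 0.06 over all measured genes. Without Cldn4, at 0 reads in KO-labelled naive, it was 0.33 and 0.44. These are differences in bulk skin, in which fewer cells of a type and less RNA per cell cannot be told apart.

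**Figure D1:**
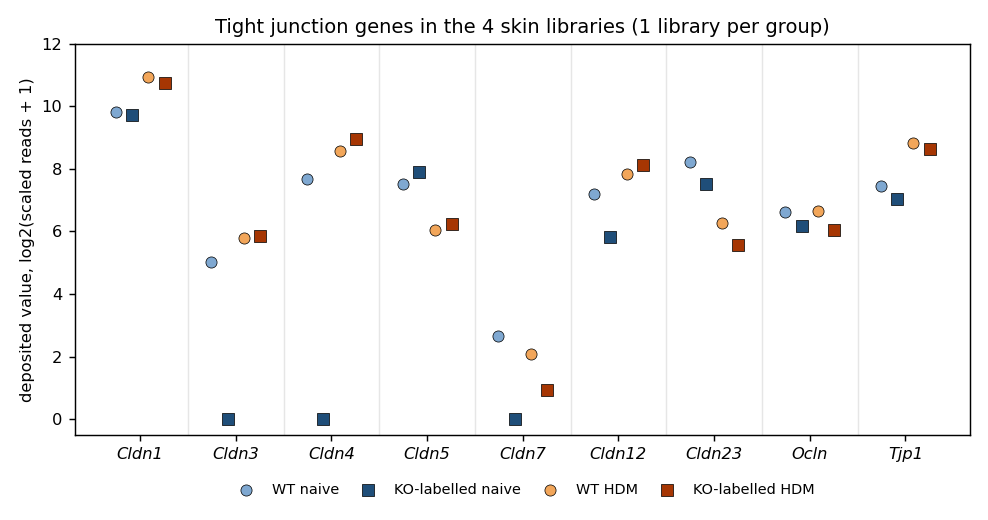
Deposited values, log2(scaled reads + 1), of the 9 tight junction genes on the y axis, with 1 point per library (circles WT, squares KO-labelled; blue naive, orange HDM). Cldn1 and Tjp1 lie higher in both HDM libraries and Cldn5 and Cldn23 lower, while Cldn3, Cldn4 and Cldn7 are at 0 in KO-labelled naive.

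Cldn1 encodes the claudin on which the epidermal water seal depends (mm10 chromosome 16, 26356642 to 26371841, minus strand). On the log2 scale naive skin stood at 9.83 (WT) and 9.73 (KO-labelled), and HDM skin at 10.93 and 10.74, from 861, 905, 1813 and 1827 reads. Both HDM libraries stood above both naive ones. The HDM library was 2.15-fold higher in WT skin (95% counting interval 1.98 to 2.33) and 2.02-fold in KO-labelled skin (1.87 to 2.20). The KO-labelled difference sat on the 2-fold line: at 1.02 on the log2 scale it was past it, and it came to 0.97, 0.98 and 0.99 under 3 other ways of scaling the libraries. The basal keratin genes Krt5 and Krt14 differed by more, 1.64 and 1.63 in WT and 2.29 and 2.79 in KO-labelled skin. Over 9 basal keratinocyte genes the median was -0.87 in WT and 0.14 in KO-labelled skin, and Cldn1 lay above 7 and 6 of them. Other keratinocyte and appendage genes also differed between the libraries. In the order WT naive, KO-labelled naive, WT HDM, KO-labelled HDM, 9 wound keratinocyte genes summed to 417, 160, 44795 and 36156 RPM (reads scaled to a common library total), 9 basal genes to 7477, 5322, 14124 and 14015, and 12 suprabasal genes to 17767, 19915, 10005 and 3977. Hair follicle genes summed to 47.2, 83.1, 2399 and 6150 RPM and sebaceous genes to 9096, 10117, 2584 and 4951. The part of these cell types in the Cldn1 and Tjp1 values was not tested.

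Tjp1 encodes ZO-1, the scaffold that links claudins and occludin to the actin belt (chromosome 7, 65296165 to 65527781, minus strand). The naive libraries read 7.46 (WT) and 7.02 (KO-labelled) on the log2 scale and the HDM libraries 8.84 and 8.65, from 166, 138, 424 and 426 reads. Again both HDM libraries lay above both naive ones. The ratio was 2.61 in WT (2.17 to 3.14) and 3.10 in KO-labelled skin (2.55 to 3.78). Genes of adherens junctions, which lie just below tight junctions and share their actin belt, were followed beside Tjp1: 5 of 9 were higher by 2-fold or more in WT and 6 of 9 in KO-labelled skin, and 0 lower, against 14.5% and 21.7% of all measured genes upward, with median log2 differences of 1.0 and 1.61. Among them the E-cadherin gene Cdh1 was 1.4-fold higher in WT (1.35 to 1.45) and 2.4-fold in KO-labelled skin (2.31 to 2.49), and the nectin gene Pvrl1 4.40-fold in each (3.93 to 4.93 and 3.91 to 4.96).

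**Figure D2:**
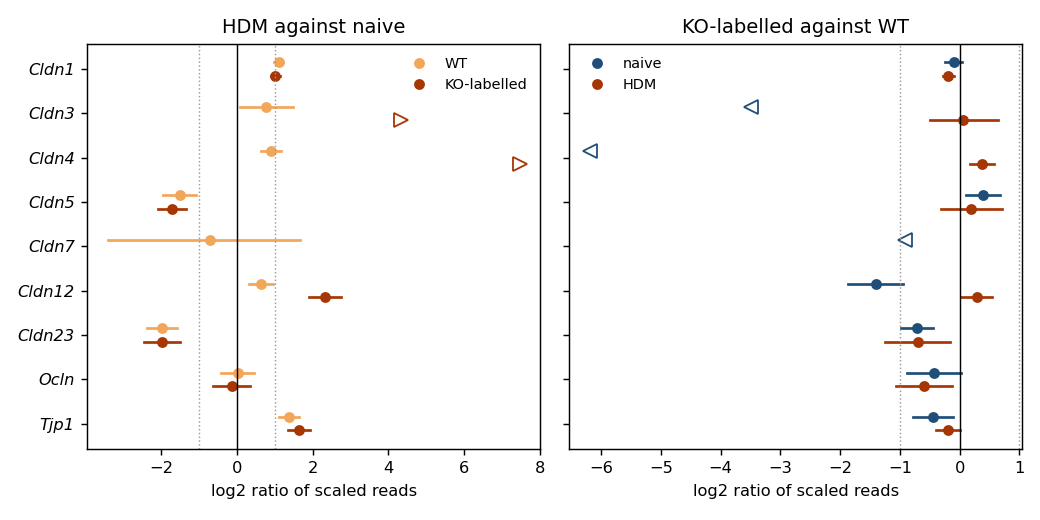
Ratio of scaled reads between 2 libraries on a log2 axis for each gene, HDM against naive at the left and KO-labelled against WT at the right. Points with lines are ratios with their 95% counting intervals, and dotted lines mark 2-fold. Open triangles are lower limits of the change against a library at 0 reads, if that 0 is taken as up to 3 reads. The WT and KO-labelled HDM ratios overlap for Cldn1, Cldn5, Cldn23, Ocln and Tjp1 and lie apart for Cldn12; Cldn7 is left out where both libraries had 3 reads or fewer.

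Windows from 250 bases before to 50 bases after the annotated start were taken from RefSeq (GRCm38.p6) for 2 genes higher with HDM, 1 lower and 1 near no difference, because EGR1 is the factor under study; 8 of the 9 genes had a window. They were searched on both strands for the EGR motif GCGNGGGCG and the grainyhead-like motif AACCNGTT, the motif of a factor family of epithelial differentiation, and matches are in capitals. The windows shown are chr16:26371790-26372089, minus strand, for Cldn1; chr7:65371195-65371494, minus strand, for Tjp1; chr16:18776597-18776896, plus strand, for Cldn5; and chr13:100552669-100552968, minus strand, for Ocln. All are written 5′ to 3′ on the gene's strand.
Cldn1: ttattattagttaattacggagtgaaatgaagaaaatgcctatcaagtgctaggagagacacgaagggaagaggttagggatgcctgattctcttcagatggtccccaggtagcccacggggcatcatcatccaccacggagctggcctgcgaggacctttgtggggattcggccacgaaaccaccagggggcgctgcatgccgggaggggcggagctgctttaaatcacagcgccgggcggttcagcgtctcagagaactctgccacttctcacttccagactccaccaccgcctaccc
Tjp1: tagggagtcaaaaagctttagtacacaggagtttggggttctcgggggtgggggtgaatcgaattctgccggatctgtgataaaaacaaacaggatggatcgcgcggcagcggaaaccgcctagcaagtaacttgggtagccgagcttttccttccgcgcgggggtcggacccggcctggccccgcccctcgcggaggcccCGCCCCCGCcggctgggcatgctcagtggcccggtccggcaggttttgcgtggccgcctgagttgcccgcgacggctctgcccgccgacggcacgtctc
Cldn5: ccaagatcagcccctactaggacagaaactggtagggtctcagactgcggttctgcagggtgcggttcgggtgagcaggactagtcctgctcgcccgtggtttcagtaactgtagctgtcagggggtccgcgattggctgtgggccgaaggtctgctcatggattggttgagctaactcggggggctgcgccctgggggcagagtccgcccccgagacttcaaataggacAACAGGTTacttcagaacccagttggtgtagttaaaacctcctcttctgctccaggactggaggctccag
Ocln: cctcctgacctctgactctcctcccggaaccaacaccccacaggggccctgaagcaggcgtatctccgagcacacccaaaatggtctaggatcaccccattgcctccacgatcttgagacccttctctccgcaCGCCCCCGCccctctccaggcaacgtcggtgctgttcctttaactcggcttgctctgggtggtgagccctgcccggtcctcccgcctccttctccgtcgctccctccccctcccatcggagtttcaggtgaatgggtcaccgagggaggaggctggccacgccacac

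The EGR motif was found in windows of Tjp1, Ocln and Cldn7, on the opposite strand in Tjp1 and Ocln, and 6.27% of all 27025 genes hold it in a window of this length. The match began 49 bases before the start in Tjp1 and 117 bases before it in Ocln, both reading CGCCCCCGC on the gene's strand. The grainyhead-like motif was found in the window of Cldn5 on the opposite strand, reading AACAGGTT on the gene's strand. That match began 20 bases before the start, and 2.35% of all genes hold the motif. The Tjp1 window belongs to a start inside the longer gene span given above. A match is letters in a window, and binding was not measured here.

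Cldn5, the claudin that seals blood vessels, stood lower with HDM (chromosome 16, 18776847 to 18778262, plus strand). Its naive log2 values were 7.53 (WT) and 7.92 (KO-labelled) and its HDM values 6.04 and 6.23, from 174, 257, 60 and 79 reads. Both naive libraries lay above both HDM ones. The HDM library was 2.84-fold lower in WT (2.11 to 3.88) and 3.24-fold lower in KO-labelled skin (2.51 to 4.23). Over 18 measured endothelial markers the median difference was 0.32 in WT and -0.07 in KO-labelled skin, and Cldn5, at -1.49 and -1.68, lay below all 18 in each. The marker nearest to it was the transcription factor gene Erg in WT (-1.04) and the lymphatic receptor gene Lyve1 in KO-labelled skin (-0.92).

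The endothelial markers went both ways. Pecam1, an adhesion gene of all endothelium, differed by 1.51 in WT and 2.31 in KO-labelled skin. Cdh5, the cadherin of vessel junctions, differed by 1.53 and -0.31, and Ptprb, an endothelial phosphatase gene, by -0.68 and -0.87. In WT 4 of the 18 passed 2-fold upward and 1 downward, against 14.5% and 12.7% of all measured genes. In KO-labelled skin 2 and 0 did, against 21.7% and 18.2%. The summed level of all 22 listed markers was 560 RPM in WT naive, 729 in KO-labelled naive, and 677 and 680 with HDM. The part of vessel content in the Cldn5 values was not tested. Of the markers Sox18 was at 0 in WT naive and Vwf and Clec14a in KO-labelled naive alone. Sox18, an endothelial transcription factor gene, had 0 and 68 reads in WT and KO-labelled naive skin and 35 and 22 with HDM.

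**Figure D3:**
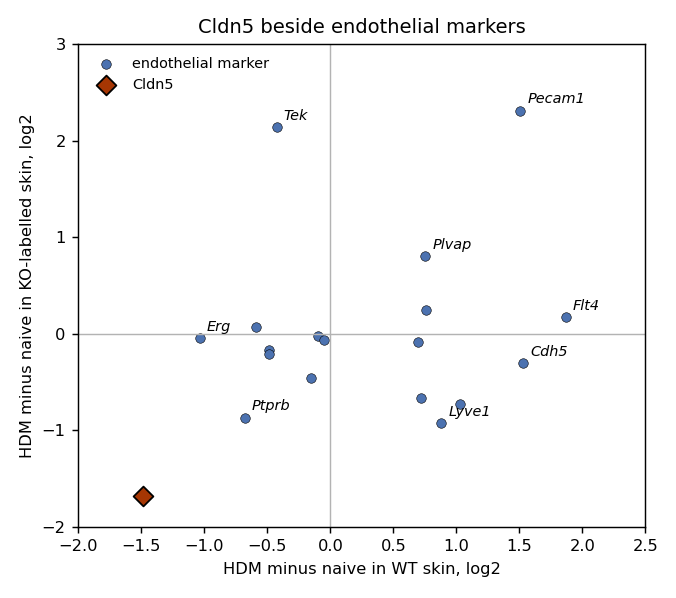
Log2 difference of HDM minus naive in WT skin (x axis) and in KO-labelled skin (y axis) for 18 measured endothelial markers (circles) and Cldn5 (diamond). Cldn5 lies at -1.49 and -1.68, below every marker on both axes.

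Cldn23, a claudin of differentiated epithelium, was lower with HDM by the same ratio in both genotypes (chromosome 8, 35824712 to 35826559, minus strand). WT skin stood at 8.22 on the log2 scale when naive and 6.28 with HDM, and KO-labelled skin at 7.52 and 5.58, from 282 and 71 reads in WT and 195 and 50 in KO-labelled skin. The naive libraries lay above the HDM ones, and within each treatment WT lay above KO-labelled. HDM skin was 3.89-fold lower in WT (2.99 to 5.12) and 3.89-fold lower in KO-labelled skin (2.84 to 5.42), a difference between the 2 log2 responses of 0.01. KO-labelled was 1.63-fold lower than WT in naive skin (1.35 to 1.97) and 1.63-fold under HDM (1.12 to 2.39). Among 11 measured suprabasal keratinocyte genes, Cldn23 had 3 below it in each genotype, with Krt2 and the envelope genes Flg2 and Lor among the lower ones. Krt2, a keratin of the upper epidermis, had 61047 reads in WT naive and 93547 in KO-labelled naive, but with HDM 4493 and 1. Flg2 differed by -3.77 and -4.16, and Lor by -2.42 and -3.93. The list as a whole went both ways: in WT 5 of 11 passed 2-fold upward and 3 downward, with Krt1 at 4.63, and in KO-labelled skin 2 and 5. The shares of all measured genes were 14.5% upward and 12.7% downward in WT, and 21.7% and 18.2% in KO-labelled skin.

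Cldn4 encodes a claudin of many epithelia that, like Cldn3, also serves as a receptor for a clostridial toxin (chromosome 5, 134945119 to 134946934, minus strand). WT skin stood at 7.69 on the log2 scale when naive and at 8.58 with HDM, and KO-labelled skin at 0 and 8.96, from 194 and 354 reads in WT and 0 and 528 in KO-labelled skin. The KO-labelled naive library stood apart from the other 3. In WT skin HDM was 1.86-fold higher (1.56 to 2.23), short of 2-fold. Against the 0 reads of KO-labelled naive, taken as up to 3 reads, KO-labelled HDM was at least 177-fold higher and WT naive at least 72.9-fold higher. Both limits rest on that library and share it, and they allow for counting error only. In that library 336 genes had 0 reads with 50 or more in each other library. A 0 there need not bound the level at 3 reads. The log2 differences themselves, 8.96 and -7.69, depend on the value added before the logarithm: with 8 in place of 1 they were 5.98 and -4.73.

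Cldn3, its neighbour on chromosome 5 (134986214 to 134987472, plus strand), showed the same layout at lower level. The naive log2 values were 5.03 (WT) and 0 (KO-labelled) and the HDM values 5.78 and 5.84, from 30, 0, 50 and 60 reads. In WT skin HDM was 1.70-fold higher (1.06 to 2.77). With the 0 taken as up to 3 reads, KO-labelled HDM was at least 20.1-fold and WT naive at least 11.3-fold above KO-labelled naive. These limits carry the same condition as those of Cldn4. The antisense gene Wbscr25 overlaps the 3′ end of Cldn3 and had log2 values of 4.98, 0, 5.23 and 5.27 in the same order of libraries. Use of the strand in counting is not stated, so reads of the pair cannot be told apart. Cldn7, known for lateral membranes of epithelia (chromosome 11, 69964779 to 69967885, plus strand), was barely detected, with 5, 0, 3 and 1 reads. No difference of Cldn7 could be detected at this depth; the WT ratio had an interval from 0.32 to 10.5.

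The zeros of Cldn3, Cldn4 and Cldn7 in KO-labelled naive were set beside all genes of like level. Of 2408 genes with a lowest read number of at least 100 and under 200 in the other 3 libraries, the class of Cldn4, Cldn12 and Tjp1, 4.11% stood at 0 in KO-labelled naive. Cldn4, with 194 reads in WT naive, lay at the upper end of this class. In the next class, which began at 200 reads, 0.71% of 2380 genes stood at 0. In the class of Cldn3, 25 to 49 reads, the share was 22.9%, and in that of Cldn7, 1 to 4 reads, 66.4%. KO-labelled naive also listed fewer genes with 1 to 10 reads than the others, 724 against 1514 to 2625. What part this has in the claudin values was not tested. Further tight junction and related genes at 0 in KO-labelled naive alone, with over 3 reads in each other library, were Cldn19, Cldn22, the MARVEL gene Marveld3, the tricellular gene Ildr1, the adhesion receptor gene Cxadr, the polarity gene Crb3 and Ovol2, a factor that keeps cells epithelial. Of these, Cldn19, Cldn22, Cxadr and Crb3 overlap opposite-strand genes, so their reads are uncertain. Dennd1c, which overlaps Crb3, was also at 0 in KO-labelled naive.

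**Figure D4:**
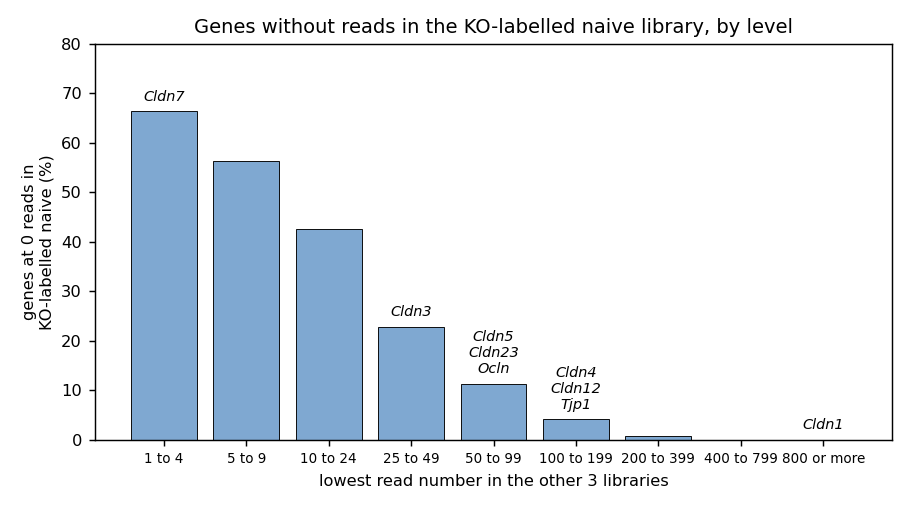
Percentage of genes at 0 reads in the KO-labelled naive library (y axis) by the lowest read number the gene had in the other 3 libraries (x axis), with the tight junction genes named above their class. The share goes from 66.4% at 1 to 4 reads to 4.11% at 100 reads to under 200, the class that holds Cldn4. Cldn4 lies at the upper end of that class with 194 reads, and in the next class, which begins at 200 reads, the share is 0.71%.

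Claudins 3, 4 and 7 are also made by glands, and gland transcripts differed strongly between libraries. The 25 listed gland and simple epithelium genes summed to 72748 RPM in WT naive, 8436 in KO-labelled naive, and 284 and 154 with HDM (WT, KO-labelled), and 2, 9, 3 and 10 of them were at 0. The salivary gene Bpifa2 alone had 336363 reads in WT naive and 4 in KO-labelled HDM. In the same order of libraries as the sums, Cldn3 had 30, 0, 50 and 60 reads and Cldn4 194, 0, 354 and 528. The part of gland tissue in the claudin values of the naive libraries was not tested. Krt8, a keratin of simple epithelium, had 137, 109, 10 and 11 reads.

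Cldn12, a broadly expressed claudin whose tail lacks the usual scaffold-binding end (chromosome 5, 5489537 to 5514958, minus strand), was the gene whose HDM ratio differed most between genotypes among those with reads in every library. Naive skin gave 7.20 (WT) and 5.81 (KO-labelled) on the log2 scale and HDM skin 7.83 and 8.11, from 138, 59, 210 and 294 reads. KO-labelled naive was the lowest library and KO-labelled HDM the highest. HDM skin was higher by 1.55-fold in WT (1.25 to 1.94) and by 5.0-fold under the KO label (3.77 to 6.73). The difference between these responses, 1.67 on the log2 scale, has no residual error in this design and was not tested.

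Ocln, the occludin gene, showed no HDM difference past counting error (chromosome 13, 100496507 to 100552718, minus strand). Naive skin stood at 6.62 (WT) and 6.19 (KO-labelled) on the log2 scale, HDM skin at 6.65 and 6.06, from 92, 77, 92 and 70 reads. The WT libraries lay above the KO-labelled ones at a small distance. The HDM ratio was 1.02 in WT (0.76 to 1.38), and HDM was 1.10-fold lower in KO-labelled skin (0.78 to 1.54). These intervals hold changes of up to 1.38-fold and 1.54-fold, which could not be detected at this depth. KO-labelled was 1.51-fold lower than WT under HDM (1.09 to 2.09) and 1.35-fold lower in naive skin, where the interval reached 1 (0.98 to 1.85).

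Between genotypes under HDM, 5 of the 7 measured genes had counting intervals that excluded 1. The share of all measured genes with such an interval was not counted, so this count is no result about these genes. Of the 7 measured genes 0 passed 2-fold between KO-labelled and WT HDM skin, where 7.72% of all measured genes did, 3.06% upward and 4.66% downward. At that background a count of 0 among 7 is no result about these genes. The largest of the 7 was Cldn23 at -0.70 on the log2 scale, followed by Ocln at -0.59. Cldn4 was 1.30-fold higher in the KO-labelled library (1.13 to 1.49) and Cldn12 1.22-fold (1.02 to 1.46), and Cldn1 was 1.14-fold lower (1.07 to 1.22). Tjp1, Cldn3 and Cldn5 had intervals that held 1. In naive skin 2 of the 7, Cldn4 and Cldn12, were lower in KO-labelled by 2-fold or more and 0 higher, against 30.7% of all measured genes, 17.1% downward and 13.6% upward. Without Cldn4, which had 0 reads there, 1 of 6 remained. Cldn12 was 2.64-fold lower (1.93 to 3.64), Tjp1 1.36-fold lower (1.08 to 1.71) and Cldn5 1.31-fold higher (1.08 to 1.60). Scaling by library totals moved the naive genotype differences of all genes up by a median of 0.12, and with it Cldn1 went from -0.10 to 0.02. The genotype differences under HDM moved up by a median of 0.10, and Cldn1 there went from -0.19 to -0.09.

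An additive model of treatment and genotype, fitted to the 4 libraries and all measured genes with limma, gave the only error estimate between libraries, which rests on 1 residual degree of freedom and on a prior shared across genes. By it 0 of the 7 measured genes passed a Benjamini-Hochberg adjusted p of 0.05 for treatment, where 4.12% of all genes did, and 0 for genotype, where 0% did. At an unadjusted 0.05, 5 of the 7 passed for treatment and 1 for genotype, and over all genes 2367 and 381. The smallest limma adjusted p was that of Cldn1 for treatment, 0.117, with an effect of 1.06 (SE 0.33). The effect of Tjp1 was 1.5 (SE 0.48) with a limma adjusted p of 0.131, that of Cldn23 was -1.94 (SE 0.68), and that of Cldn5 -1.59 (SE 0.67). The model takes the departure from additivity as error, so a difference in response between genotypes enters that error. With genes of low value kept in the fit, Cldn1 and Cldn4, the latter at 0 reads in KO-labelled naive, passed for treatment. Over all genes 1293 then passed, against 478 with the filter.

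The wider set of tight junction genes lay on both sides. Besides these 9, the tables hold 62 listed genes, and 37 of them were measured. With HDM, 2 of the 37 passed 2-fold upward and 10 downward in WT skin (median -0.42), against 14.5% and 12.7% of all measured genes. In KO-labelled skin 3 passed upward and 6 downward (median -0.10), against 21.7% and 18.2%. Between genotypes 3 were higher and 3 lower in KO-labelled naive, against 13.6% and 17.1% of all measured genes. Under HDM 3 were higher and 3 lower too, against 3.06% and 4.66%. Tjp3, a scaffold gene of the same family as Tjp1, was 4.54-fold (3.29 to 6.37) and 7.93-fold higher with HDM (4.22 to 16.5), and its value of 11 reads in KO-labelled naive was the lowest of the 4 libraries. Tjp3 overlaps the opposite-strand gene Apba3, so its reads are uncertain.

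Among the other claudins, Cldn8 and Cldn10 were lower with HDM in WT and not in KO-labelled skin past 2-fold. Cldn8, a barrier claudin of tubules and ducts, had 83, 93, 22 and 106 reads in WT naive, KO-labelled naive, WT HDM and KO-labelled HDM, and WT HDM stood apart from the rest. It was 3.70-fold lower with HDM in WT (2.29 to 6.21), and under HDM KO-labelled was 4.20-fold higher than WT (2.63 to 6.98). Cldn10, an ion-pore claudin of glands and kidney, had 251, 201, 85 and 175 reads and was 2.89-fold lower with HDM in WT (2.25 to 3.74). Cldn22 had 273, 0, 10 and 4 reads, but it lies within the opposite-strand gene Wwc2, so its reads are uncertain too. Of the 22 listed other claudins present, 14, 17, 11 and 12 had 0 reads in the same order of libraries.

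Genes of tricellular corners and junctional adhesion molecules went both ways. Marveld1, a MARVEL-domain gene, was 1.95-fold lower with HDM in WT (1.76 to 2.16) and 2.63-fold in KO-labelled skin (2.39 to 2.90). Lsr, which encodes the angulin that marks tricellular corners, was 1.35-fold (1.20 to 1.52) and 3.63-fold higher (3.16 to 4.18). The adhesion gene Jam3 was 2.67-fold (1.84 to 3.94) and 3.37-fold lower (2.44 to 4.72), and Clmp 3.73-fold (3.39 to 4.11) and 2.28-fold lower (2.13 to 2.44). F11r, the JAM-A gene of epithelium and vessels, differed by 0.32 and 0.82 on the log2 scale. Among 26 measured scaffold and polarity genes, 2-fold was passed upward by 2 and downward by 6 in WT, and by 2 and 3 in KO-labelled skin. Over all measured genes the shares were 14.5% upward and 12.7% downward in WT, and 21.7% and 18.2% in KO-labelled skin. The kinase gene Wnk4 was 3.38-fold (2.60 to 4.43) and 11.8-fold lower (8.19 to 17.7), and the scaffold gene Magi2 was 3.16-fold lower in WT (2.37 to 4.26). Pard6a, a polarity gene, was 10.9-fold lower (7.89 to 15.5) and Shroom2 10.9-fold higher (5.85 to 22.3) in KO-labelled skin, where Shroom2 had 11 reads in the naive library.

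**Figure D5:**
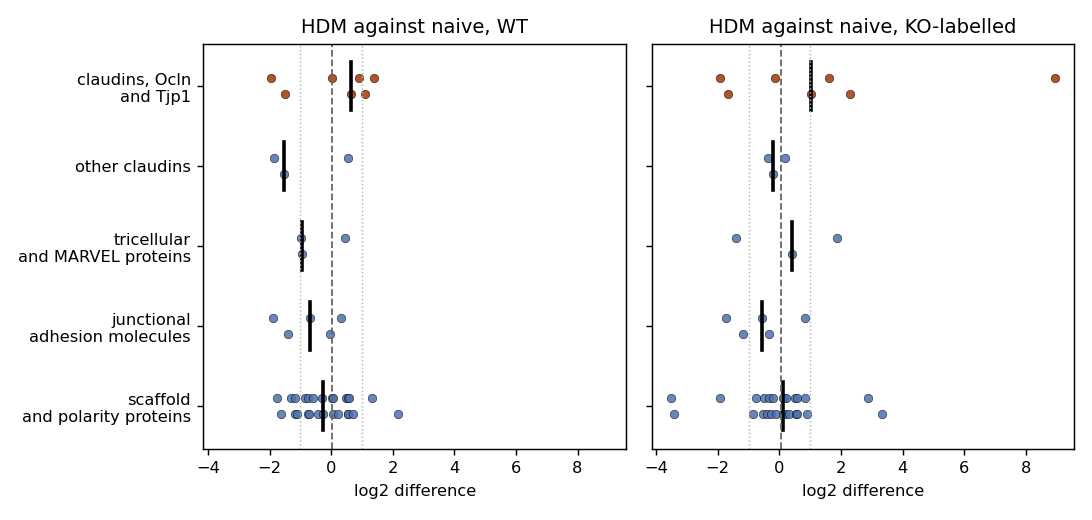
Log2 difference of HDM minus naive (x axis) for each measured gene of the claudin, Ocln and Tjp1 group (red) and of 4 lists of other tight junction genes (blue), in WT at the left and KO-labelled at the right; black bars are list medians, the dashed line the median of all measured genes and dotted lines 2-fold. The red points lie on both sides in each panel, with Cldn4 at 8.96 in KO-labelled skin against a library at 0 reads, a value that depends on the pseudocount of 1.

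Genes known to act on epithelial differentiation and on claudins were also followed. Of 17 measured, 4 passed 2-fold upward and 0 downward in WT skin (median 0.51), against 14.5% and 12.7% of all measured genes. In KO-labelled skin 6 and 1 did (median 0.04), against 21.7% and 18.2%. The matriptase gene St14, whose protease is needed for the epidermal barrier, was 3.92-fold (3.12 to 4.97) and 11.2-fold higher (7.80 to 16.5). Its inhibitor gene Spint1 was 2.52-fold (2.20 to 2.90) and 2.22-fold higher (1.96 to 2.53), and the epithelial factor gene Ovol1 3.60-fold (3.29 to 3.95) and 4.03-fold higher (3.66 to 4.44). The grainyhead-like genes Grhl2 and Grhl3 differed by 0.51 and 0.23 in WT and by -0.06 and 0.02 in KO-labelled skin on the log2 scale, and Grhl1 by 0.43 and 1.19. Epcam, whose product binds claudins 1 and 7, differed by -0.20 and -0.43.

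The measured genes nearest in pattern were found for Cldn1, Cldn3, Cldn5 and Ocln, by the distance between values centred on each gene's mean over the 4 libraries. For Cldn5 they were Ikbip (distance 0.03), Cachd1 (0.05) and the adhesion gene Jam3 (0.08), and 244 genes lay within 0.5. For Cldn1 they were Psmd5, Suv420h2 and Baz1a (each 0.04), with 705 genes within 0.5, and for Ocln Mvb12b (0.05), Nr2c1 and Lrrcc1 (each 0.08), with 746. Cldn3, which is at 0 in KO-labelled naive, had Ampd3 (0.11), Psmc3ip (0.15) and Wdr34 (0.28), with 13 genes within 0.5. Only measured genes were compared and Cldn3 is not among them, so other genes of low value were left out of its count. With 4 libraries such a likeness is shared by many genes.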

How the data were processed

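Each library has 1 table of log2 values by gene symbol, as deposited by the authors; 35 symbols on 79 lines were left out here. Per the submitters' processing notes Bowtie2, bedtools and mm10 were used; for versions, annotation and normalization the sources used here give nothing. Low values, as 2 to the power of the value minus 1, sat on whole multiples of a step (1.056, 0.936, 1.078 and 0.939 in WT naive, KO naive, WT HDM and KO HDM), so the deposited log2 values were read as log2(scaled reads + 1). Dividing by the step gave reads; 96.2% to 99.3% of the genes with up to 200 reads came out whole within 0.1 read, and values below 0.1 counted as 0 reads. A 0 was taken as up to 3 reads, which allows for counting error only. Intervals are exact (Clopper-Pearson, conditional on the summed reads) and cover counting error only. They take reads as independent counts, and reads carry no molecular identifiers, so they can be too narrow. The comparisons were HDM against naive within each genotype and KO-labelled against WT within each treatment, as differences of log2 values with a 2-fold rule. Python 3.11.15, scipy 1.17.1, R 4.3.3 and limma 3.58.1 (intensity trend) were used, and the steps were tested on simulated data. Alternatives were other scalings, a pseudocount of 8, 3 reads for zeros, other filters and other fold rules. All 9 genes are named; other tight junction genes are named from the 4 with the largest difference per list and comparison, and further ones were named after their values were seen. Members and lists were chosen with earlier results of these data known. Coordinates are from GENCODE M21 (mm10). 1 listed gene is not reported here by name.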

Additional observations from a re-analysis of the deposited data

Results flagged for a closer look

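The difference between KO-labelled and WT skin had opposite directions in naive and in HDM libraries for 2 of the genes, in both cases past counting error. Cldn4 was at -7.69 on the log2 scale in naive skin, against a library with 0 reads (-4.73 with a pseudocount of 8), and at 0.38 under HDM. Cldn12 was at -1.39 in naive skin and at 0.28 under HDM. With 1 library per group the difference between these effects was not tested. Both rest on the KO-labelled naive library, in which 336 genes had 0 reads with 50 or more in each other library. Intervals against that library cover counting error only and can be too narrow.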

How the results depend on the processing

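With 1 library per group no replicate could be left out. No paired analysis was possible because each group has 1 library. Of the 36 differences of the 9 genes under 5 scaling, pseudocount and zero settings (180 values), none past 2-fold changed sign and 7 crossed the 2-fold line: Cldn1 in KO-labelled skin under 3 scalings and Cldn7, with 5 reads or fewer, under a pseudocount of 8 or zeros at 3 reads. Of the 180, 9 moved outside the counting interval, 8 of them differences against the 0 reads of Cldn3 and Cldn4 in KO naive: with a pseudocount of 8 and with zeros at 3 reads, Cldn4 came to 5.98 and 7.03 for HDM (8.96 before) and -4.73 and -5.76 for genotype (-7.69), and Cldn3 to 3.01 and 3.91 (5.84) and to -2.31 and -3.10 (-5.03). The other was Cldn1 for genotype under HDM, -0.09 with scaling by library totals (-0.19). The counts of measured genes past 2-fold were 4 and 6 for HDM in WT and KO-labelled skin and 2 and 0 for genotype in naive and HDM skin. A 3-fold rule gave 1 for HDM in WT and 1 for naive genotype; a 1.5-fold rule gave 2 for genotype under HDM; no filter gave 4 and 1 of 9 for genotype in naive and HDM skin. Leaving out genes at 0 reads in KO naive, chosen after seeing the data, gave 1 for naive genotype. For the other tight junction genes (12, 9, 6 and 6 of 37 in the same order), no filter gave 22, 21, 17 and 13 of 62, a 1.5-fold rule 21, 14, 13 and 11, a 3-fold rule 5, 3 and 2 (HDM in WT, naive and HDM genotype), and a filter of 50 reads in a library 16 and 13 of 44 (HDM in KO-labelled skin and naive genotype). The additive limma fit gave 2 of the 9 genes for treatment without the filter, against 0. Over all genes it gave 1293, against 478. The counts past a fold move with the line and the number of genes counted. The shares of all genes under the other fold rules and filters were not counted, so those counts are no result about these genes. The cause of the limma shift was not tested. Depth limits Cldn7 (0 to 5 reads) and Cldn3 (0 to 60 reads) most.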
